A study of Gallus gallus with 10 samples.

Results

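SLC2A1, FTH1 and GPX1, the genes described here, encode a glucose transporter, an iron-storage protein and an antioxidant enzyme. They are 3 of the 11324 genes counted in the preoptic anterior hypothalamus (PO/AH) of the chick. They were chosen by their Ensembl identifiers, which are ENSGALG00000004889 for SLC2A1, ENSGALG00000007220 for FTH1 and ENSGALG00000028204 for GPX1. The identifiers were paired with names through the study's list of genes upregulated after the mimic in these same libraries, so the contrast chose the genes. Their difference between the groups is therefore a description, and nothing is read from whether it passes a threshold. The study places these genes together under the NRF2 pathway. Its text writes GPX2 where its gene list writes GPX1, and no annotation used here settles which glutathione peroxidase the identifier stands for. The name GPX1 is kept below for that identifier.

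All chicks were Cobb broilers at 3 days of age. In 5 libraries the RNA came from chicks injected with a hsa-miR-200a-3p mimic, a synthetic double of the mature human microRNA, and taken 6 h later. The labels name the PO/AH as the site of injection, while the text of the study names the PO/AH in places and the third ventricle in another. In the other 5 it came from naïve chicks, which were not injected and whose hour of sampling is unknown. The libraries include none from chicks given a negative control mimic, so the injection and the mimic cannot be told apart. No source used here says whether 1 chick or a pool went into each library, so the spread between libraries may in part be technical. Libraries keep the numbers of their columns, 2, 4, 6, 9 and 10 for the mimic and 2, 3, 4, 6 and 7 for naïve chicks.

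NRF2 is a transcription factor that switches on antioxidant and iron-handling genes. In resting cells the adaptor KEAP1 holds it and sends it for degradation, and oxidants or electrophiles release it. In human cells miR-200a is known to act on the message of KEAP1. SLC2A1 (GLUT1) carries glucose by facilitated diffusion and in mammals is the main glucose transporter of the blood-brain barrier endothelium. FTH1 is the heavy chain of ferritin, which oxidizes ferrous iron and stores it in the ferritin shell. Glutathione peroxidases use glutathione to reduce peroxides, and GPX1 carries a selenocysteine in its active site.

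The values are unique molecular identifier (UMI) counts, in which each RNA molecule is meant to be counted once at its 3′ end. They summed to between 3598695 and 4511597 per mimic library and to between 2104121 and 5503185 per naïve library. The lowest total was that of naïve library 7, which also lay farthest from the rest on the first principal component (PC1) over the 500 most variable genes, at −24.66. Levels are CPM, counts scaled to a common library size, after TMM normalization by edgeR, which also allows for differences in composition. All 3 genes passed the filter on low counts, as did 8585 genes in all. A gene was called where edgeR's adjusted p was 0.05 or less, the fold change 1.5 or more and the highest count 30 or more. By this rule 0 of the 3 genes were called, against 0.163% of all genes tested (0.14% called higher and 0.0233% lower). DESeq2 at the study's settings also called 0 of the 3, against 0.478% of all genes (0.419% higher). The list from which the genes were taken used a looser threshold, an adjusted p of 0.1 or less. DESeq2 was run here on the genes that passed the filter on low counts, a filter the study does not describe. At the study's settings it gave adjusted p of 0.0756 for SLC2A1, 0.114 for FTH1, which is above 0.1, and 0.0524 for GPX1. The fold changes fitted by edgeR, 1.45, 1.30 and 1.48 in the same order, were also below the rule's minimum of 1.5. With all libraries, no threshold on adjusted p could therefore have led to a call by this rule. At an unadjusted p under 0.05 by edgeR the count was 3 of 3 (7.45% of all genes), which the choice of the genes from this contrast fixes.

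SLC2A1, the glucose transporter, had a higher mean after the mimic than in naïve chicks. In mimic libraries 2, 4, 6, 9 and 10 it measured 123.3, 139.1, 162.3, 203.1 and 171.7 CPM, and in naïve libraries 2, 3, 4, 6 and 7 it measured 117.7, 105.0, 117.6, 119.6 and 90.8 CPM. Mimic library 9 was the highest and naïve library 7 the lowest of all. Each of the 5 mimic libraries exceeded every naïve library, as was the case for 1.09% of all genes tested, but mimic library 2 did so by 3.73 CPM. The 95% counting interval of mimic library 2 was 112.0 to 135.4 CPM, which covers the values of naïve libraries 2, 4 and 6. The mimic libraries averaged 159.9 ± 30.8 CPM and the naïve libraries 110.1 ± 12.3 CPM (SD, n = 5 each). The fitted log2 fold change was 0.53 (standard error 0.14, 95% interval 0.24 to 0.83), or 1.45-fold. With upper-quartile factors or library totals alone, only 4 mimic libraries exceeded all naïve libraries.

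**Figure D1:**
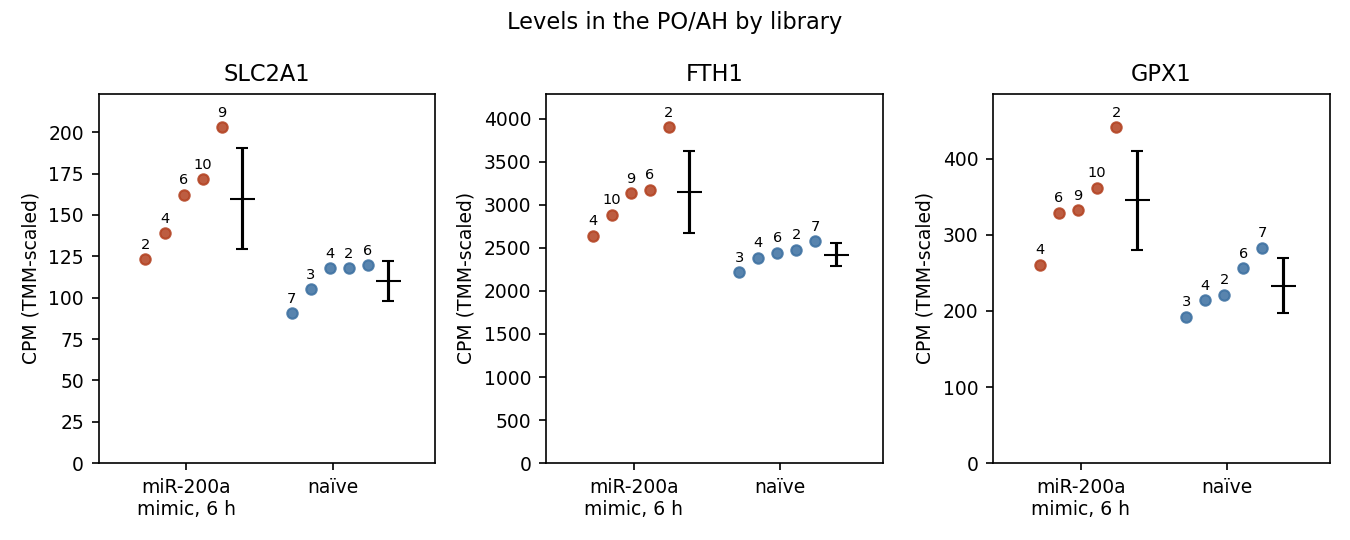
Levels of SLC2A1, FTH1 and GPX1 in each library, as TMM-scaled CPM on axes that start at 0, with mimic libraries left and naïve libraries right. Points are single libraries with their numbers, and the bar beside them is the mean with the SD over 5 libraries. The groups lie apart for SLC2A1 and FTH1, as they do in this direction for 1.09% of all genes tested. For GPX1 naïve library 7 (282.9 CPM) lies above mimic library 4 (260.7 CPM).

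FTH1, the ferritin heavy chain, was counted 5086 to 13996 times per library and so had the smallest counting error of the 3 genes. Its level was 3900, 2641, 3172, 3130 and 2885 CPM in mimic libraries 2, 4, 6, 9 and 10, and 2478, 2218, 2386, 2441 and 2579 CPM in naïve libraries 2, 3, 4, 6 and 7. Mimic library 2 stood highest, and the lowest mimic library exceeded the highest naïve library by 62.2 CPM. The groups did not overlap under any of the 4 scalings tried. With TMM factors, 1.09% of all genes tested lay apart in this direction. FTH1 was chosen from a list of genes higher in these same libraries, which favors such a gap. The mimic libraries averaged 3146 ± 473 CPM and the naïve libraries 2420 ± 133 CPM (SD, n = 5 each). The fitted log2 fold change of 0.38 (standard error 0.11, 95% interval 0.15 to 0.61) was the smallest of the 3, at 1.30-fold, and dropped to 0.29 without mimic library 2. Among all UMI counts of a library, FTH1 made up 0.265% to 0.387% after the mimic and 0.240% to 0.251% in naïve chicks.

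GPX1, the glutathione peroxidase, had the largest fitted log2 fold change of the 3 genes, 0.57 (standard error 0.14, 95% interval 0.26 to 0.87), or 1.48-fold. Its level was 441.6, 260.7, 329.0, 332.4 and 362.1 CPM in mimic libraries 2, 4, 6, 9 and 10, and 221.2, 192.5, 214.2, 256.2 and 282.9 CPM in naïve libraries 2, 3, 4, 6 and 7. The groups overlapped, since mimic library 4 lay 22.2 CPM below naïve library 7. The other 4 mimic libraries were above every naïve library. The mimic libraries averaged 345.2 ± 65.5 CPM and the naïve libraries 233.4 ± 35.9 CPM (SD, n = 5 each). Without naïve library 7 the groups no longer overlapped with TMM or RLE factors but did with upper-quartile factors and with library totals alone. This check was chosen after seeing the data, and GPX1 came from a list of genes higher in these same libraries, which favors such a gap. The share of all genes that lay apart without naïve library 7 was not counted. The log2 fold change of GPX1 without that library was 0.64.

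The spread between libraries was far above counting error in both groups. For SLC2A1 the coefficient of variation was 19.2% after the mimic and 11.2% in naïve chicks, where counting alone gives 4.05% and 5.03%. For FTH1 it was 15.0% after the mimic and 5.51% in naïve chicks, with counting errors of 0.901% and 1.04%. For GPX1 it was 19.0% after the mimic and 15.4% in naïve chicks, with counting errors of 2.73% and 3.32%. In each gene the mimic libraries varied more in this sense, but this difference in spread was not tested. The biological coefficient of variation that edgeR estimated was 16.4% for SLC2A1, 14.2% for FTH1 and 17.1% for GPX1, each below the trend for genes of like abundance (18.0%, 17.7% and 17.5%).

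To ask whether these genes vary together apart from the group difference, each library's log2 CPM was taken as a deviation from the mean of its group. Relations were tested by an exact permutation test over all 14400 relabelings of libraries within the groups, two-sided, with adjustment over 6 relations. The deviations of FTH1 and GPX1 were positively correlated, although mimic libraries 6, 9 and 10 and naïve library 2 had deviations of opposite sign in these genes. Pearson's r was 0.84 (n = 10, permutation p = 0.00903, adjusted p = 0.0271) and Spearman's rho was 0.75 (permutation p = 0.0336, adjusted p = 0.101). Mimic library 2 held the highest and mimic library 4 the lowest level of both genes among mimic libraries, and naïve libraries 7 and 3 did so among naïve libraries. Without mimic libraries 2 and 4, the farthest from the median of FTH1, r was 0.58, so the relation rests in good part on them. Within each group r was 0.88 after the mimic and 0.87 in naïve chicks. The relation is not particular to this pair. Among 6689 genes compared, GPX1 ranked 78 in r with FTH1, and FTH1 ranked 117 in r with GPX1. The number of GPX1 counts per 100 FTH1 counts, which no scaling affects, was 10.9 ± 1.04 in mimic libraries and 9.61 ± 1.04 in naïve libraries (SD, n = 5 each). Only 2 of 5 mimic libraries exceeded all naïve libraries in this ratio.

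No relation of SLC2A1 with the other 2 genes passed the test. Its r was −0.33 with FTH1 and −0.28 with GPX1 (n = 10, permutation p = 0.509 and 0.512, adjusted p = 0.512 for each). Spearman's rho was −0.20 and −0.05 (permutation p = 0.640 and 0.942). Without mimic library 2 and naïve library 7 the signs turned, to an r of 0.76 with FTH1 and 0.71 with GPX1. In these 2 libraries SLC2A1 was lowest in its group while FTH1 and GPX1 were highest. They are also the lowest of their groups on PC1, at −9.37 for mimic library 2 and −24.66 for naïve library 7. SLC2A1 followed PC1 within the groups, with r = 0.85 (n = 10, permutation p = 0.00257, adjusted p = 0.0154) and rho = 0.85 (permutation p = 0.00931, adjusted p = 0.0558), and with r = 0.73 without mimic library 2 and naïve library 7. None of the 3 genes is among the 500 from which PC1 was made. How many other genes followed PC1 as closely was not counted, so the relation is not shown to be particular to SLC2A1. FTH1 and GPX1 had r of −0.44 and −0.43 with PC1 (n = 10, permutation p = 0.178 and 0.240, adjusted p = 0.356 and 0.360).

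**Figure D2:**
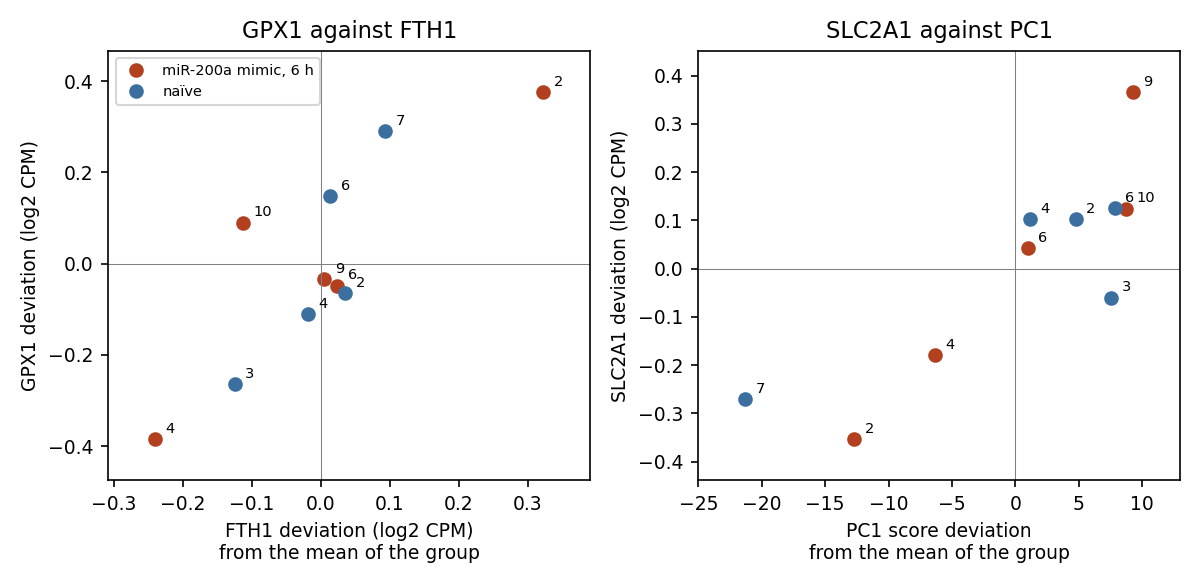
Deviation of each library from the mean of its group, for GPX1 against FTH1 (left, both in log2 CPM) and for SLC2A1 in log2 CPM against the PC1 score (right). Points are single libraries with their numbers, mimic in red and naïve in blue. GPX1 and FTH1 are positively correlated, with mimic libraries 2 and 4 at the ends (r = 0.84), and SLC2A1 is low in the libraries low on PC1 (r = 0.85).

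The genes whose pattern was most like each of the 3 were looked for by the same deviations, over 10 libraries and 6689 other genes with a mean count of 30 or more. Of these, 100 carried a symbol, all taken from the study's own gene lists, so the names are a small and selected sample. For FTH1 the best named matches were PADI3, a peptidylarginine deiminase, with r = 0.93, GPX1 with 0.84, and C1QC, a chain of complement C1q, with 0.78. For GPX1 they were PADI3 with r = 0.91, ARPC1B, a subunit of the actin-branching Arp2/3 complex, with 0.88, and FTH1 with 0.84. FTH1 and GPX1 thus shared PADI3 as the closest named gene. For SLC2A1 they were PRR5, a component of mTOR complex 2, with r = 0.82, EIF3E, a subunit of translation initiation factor 3, with 0.73, and CSPG5, a neural proteoglycan, with 0.64. Genes without a symbol came closer, at up to r = 0.97 for SLC2A1, 0.98 for FTH1 and 0.98 for GPX1. Among the 6689 genes, PRR5, EIF3E and CSPG5 ranked only 130, 364 and 715 in r with SLC2A1. For FTH1, PADI3, GPX1 and C1QC ranked 6, 78 and 189. For GPX1, PADI3, ARPC1B and FTH1 ranked 17, 57 and 117. An r of 0.9 or more was reached by 22 genes for SLC2A1, 23 for FTH1 and 32 for GPX1, and an r of −0.9 or less by 25, 9 and 17 genes in the same order. These values are descriptions over 10 libraries, and all points share the same libraries, depth and scaling.

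Other genes of glucose and lactate transport, glycolysis, iron handling, glutathione, selenoproteins, NRF2 and hypoxia were listed from general knowledge, 234 symbols in 8 lists. Only 4 of them could be tied to an identifier in the counts, which are the 3 genes above and SLC16A1. The state of these pathways was therefore not analysed here beyond SLC16A1, and neither NRF2 nor KEAP1 could be looked up. SLC16A1 (ENSGALG00000001717), the monocarboxylate transporter that carries lactate and pyruvate, was also taken from the study's upregulated list. It measured 54.1, 35.8, 37.2, 67.9 and 39.9 CPM in mimic libraries 2, 4, 6, 9 and 10, and 25.8, 28.1, 27.2, 25.4 and 37.5 CPM in naïve libraries 2, 3, 4, 6 and 7. Naïve library 7 was exceeded by 3 mimic libraries and lay above the other 2, so the groups overlapped. Its log2 fold change was 0.72 (standard error 0.19, 95% interval 0.31 to 1.13), and it was not called.

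In bulk tissue, more cells of a type and more RNA per cell cannot be told apart. The labels give whole tissue of the PO/AH. Of the lists of cell markers, those for astrocytes, oligodendrocytes, erythrocytes and the hypothalamus had no identified gene, so the labelled region was not checked by its own markers. RBFOX3 (ENSGALG00000032889), which marks mature neurons, was present in every library, at 53.2 to 110.6 CPM after the mimic and 91.2 to 138.4 CPM in naïve chicks.

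Of 30 markers of brain endothelium, 3 were identified, which are SLC2A1, SLC16A1 and MFSD2A. MFSD2A (ENSGALG00000003879) carries lysophosphatidylcholine with docosahexaenoic acid across the blood-brain barrier in mammals, and its name comes from the study's list of genes near methylation differences in sperm, not from this contrast. It measured 113.8, 60.5, 98.6, 55.0 and 95.3 CPM in mimic libraries 2, 4, 6, 9 and 10, and 110.8, 129.8, 86.7, 127.3 and 120.7 CPM in naïve libraries 2, 3, 4, 6 and 7. Its mean was lower after the mimic, where that of SLC2A1 was higher, with a log2 fold change of −0.44 (95% interval −0.86 to −0.03, adjusted p = 0.639 from edgeR), and it was not called. Mimic libraries 4 and 9 were below the lowest naïve library and the other 3 were not. SLC2A1 was counted 210.4 ± 98.8 times per 100 MFSD2A counts in mimic libraries and 98.4 ± 24.1 times in naïve libraries (SD, n = 5 each). Mimic library 9 was highest at 369.3, while mimic library 2, at 108.4, lay below naïve library 4, at 135.7. SLC2A1 was chosen as higher in these mimic libraries, so a higher ratio is in part fixed by that choice. The part of endothelial content in the SLC2A1 difference was not tested.

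**Figure D3:**
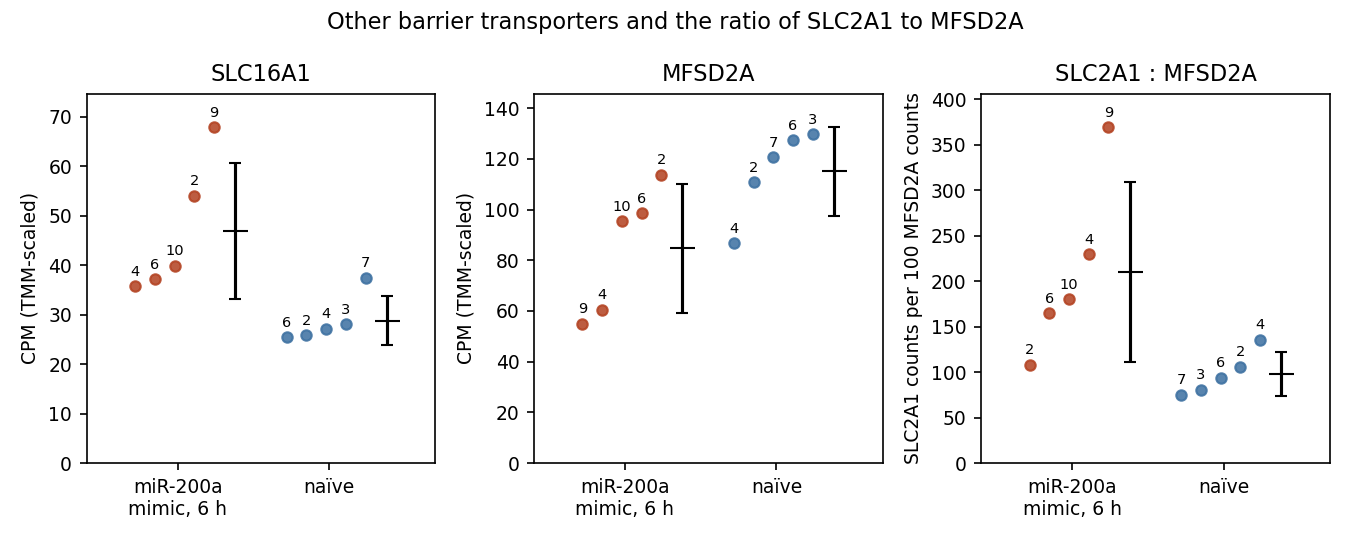
Levels of SLC16A1 and MFSD2A in each library as TMM-scaled CPM, and SLC2A1 counts per 100 MFSD2A counts, on axes that start at 0, with mimic libraries left and naïve libraries right. Points are single libraries with their numbers, and the bar is the mean with the SD over 5 libraries. SLC16A1 averaged 47.0 after the mimic and 28.8 CPM in naïve chicks, MFSD2A averaged 84.6 and 115.0 CPM, and the groups overlap in all 3 panels.

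Microglia and other macrophages are rich in ferritin. Of 21 microglial markers 6 were identified, which are C1QA, C1QB, C1QC, P2RY13, SPI1 and TREM2, and none was at 0 in any library. Their summed level was 158.2 to 221.8 CPM after the mimic and 80.5 to 116.6 CPM in naïve chicks. Of the 6, edgeR called C1QB and C1QC higher after the mimic, where 0.14% of all genes were called higher, and called none lower. The other 4 were not called, and of these C1QA, SPI1 and P2RY13 had higher means after the mimic and TREM2 a lower one, at 9.72 CPM against 17.6 CPM in naïve chicks. The study lists TREM2 as downregulated and the other 5 as upregulated in these same libraries, so their sum is no independent measure of microglial content. Among mimic libraries the sum was highest in library 6 (221.8 CPM), where FTH1 was the second highest and GPX1 the second lowest of the group, and next in library 2 (204.8 CPM), where both were highest. Among naïve libraries the sum was lowest in library 3 (80.5 CPM), where FTH1 and GPX1 were also lowest. It was highest in library 4 (116.6 CPM), where both genes were the second lowest of the group. Next came library 7 (116.1 CPM), where both were highest. The part of microglial content in the FTH1 and GPX1 differences was not tested. Of 22 markers of choroid plexus and meninges, FXYD2, FOLR1 and SLC6A13 were identified, and their sum was 0.227 to 2.61 CPM after the mimic and 8.54 to 41.1 CPM in naïve chicks. All 3 come from the study's downregulated list. FXYD2 alone passed the filter on low counts, and edgeR called it lower, where 0.0233% of all genes tested were called lower. FOLR1 was at 0 in 4 mimic libraries, and SLC6A13 in mimic libraries 2 and 6 and naïve library 4. The highest sum was that of naïve library 7, in which SLC2A1 was lowest and FTH1 and GPX1 highest among naïve libraries. The libraries with the next sums were mixed in this respect. In naïve library 6 (22.7 CPM) SLC2A1 was the highest of the naïve group and GPX1 the second highest, at 256.2 CPM. In naïve library 3 (21.2 CPM) FTH1 and GPX1 were the lowest and SLC2A1 the second lowest, at 105.0 CPM. The part of this tissue in the differences was not tested.

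The direction of all 3 differences was the same in every fit, which the choice of the genes from this contrast favors. With each library left out in turn, the log2 fold change lay between 0.44 and 0.62 for SLC2A1, between 0.29 and 0.44 for FTH1 and between 0.46 and 0.65 for GPX1. The lowest value came without mimic library 9 for SLC2A1 and without mimic library 2 for FTH1 and GPX1. Over the other settings it lay between 0.47 and 0.54 for SLC2A1, 0.32 and 0.38 for FTH1 and 0.51 and 0.57 for GPX1. None of the 3 genes was called in any of these fits.

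**Figure D4:**
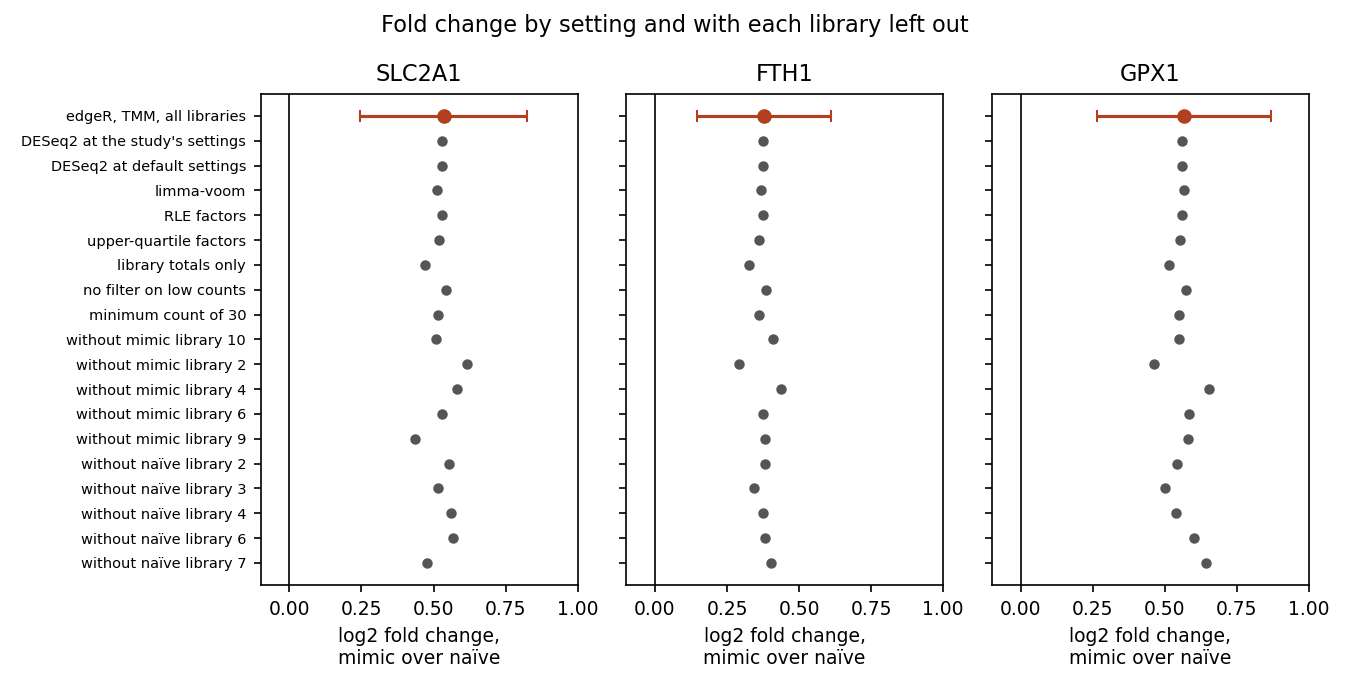
Log2 fold change of the mimic over naïve libraries for SLC2A1, FTH1 and GPX1 under each setting and with each library left out. The red point at the top is the edgeR estimate with its 95% interval, and grey points are the other fits. Every point lies above 0, and the lowest is 0.29, for FTH1 without mimic library 2.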

How the data were processed

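PO/AH RNA was profiled by bulk MARS-seq in 5 mimic and 5 naïve libraries. Reads had been trimmed (cutadapt), aligned by STAR against 3′ UTR regions of galGal5 genes, deduplicated by gene and UMI and counted (HTSeq), and the authors corrected the UMI counts for saturation. No source used here gives versions of these tools. The deposited UMI counts per gene were used, and 10 further deposited columns of normalized values per sample were not used. Groups came from the condition in each column name.

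The tests used edgeR 4.0.16 in R 4.3.3. Genes passing filterByExpr with a minimum count of 10 were scaled by TMM and fitted by the robust quasi-likelihood method, with Benjamini-Hochberg adjustment over 8585 genes. Intervals use the quasi-likelihood standard error, and counting intervals are exact Poisson limits that cover counting error only. Neither these limits nor the counting errors allow for the authors' correction of the counts for saturation. Log2 CPM used a prior count of 2. Alternatives used DESeq2 1.42.0, limma 3.58.1 (voom), other scalings, filters and thresholds, and each library left out. The overlap and correlation alternatives were chosen after seeing the data. The fit was tested on simulated data. The call rule recovered 18% of simulated 1.5-fold changes, 62% of 2-fold, 98% of 4-fold and 88% of 8-fold changes. Of its calls, 5% were false. A change of 1.5-fold or less is therefore seldom called with these libraries. Names for 137 genes came from the study's gene lists, because the reference table used here holds 0 Ensembl identifiers. These include its lists of changed genes, at an adjusted p of 0.1 or less, and its list of genes near methylation differences in sperm. The genes named were the 3 genes, their measured paralogs (none identified), the identified pathway genes and the 3 best named matches of each gene. The genes and the lists were chosen with earlier results of these data known.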

Additional observations from a re-analysis of the deposited data

Results flagged for a closer look

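SLC16A1, the lactate and pyruvate transporter, measured 37.5 CPM in naïve library 7, far above the other 4 naïve libraries, which lay between 25.4 and 28.1 CPM. The gap to the nearest library was 0.781 of the range of the group, above the critical value of 0.71 for 5 libraries. It rests on 74 counts, with a 95% counting interval of 29.5 to 47.1 CPM. Of 24 groups checked in 12 genes, 1 was marked in this way, and chance marks about 1 in 20.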

How the results depend on the processing

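No paired analysis was possible because the numbers in the column names are not those of the labels. The study also describes no pairing of mimic and naïve chicks, so matching numbers would not by themselves have made pairs. The log2 fold changes of SLC2A1, FTH1 and GPX1 kept their direction and moved by less than the spread between libraries in all 20 alternatives, and 0 of the 4 identified pathway genes were called in any of them. Alternatives that changed only the threshold on adjusted p kept the same fit, so the fold changes could not move in them. The choice of the genes from this contrast also favored a kept direction. Over all genes, edgeR called 14, of which 12 were higher and 2 lower after the mimic. DESeq2 called 41 (36 higher and 5 lower) at the study's settings and the same numbers at default settings. A minimum count of 30 gave 9 calls (7 higher), and an adjusted p of 0.1 gave 29 (27 higher). Leaving out each library gave 8 to 20 calls, with 6 to 18 higher, and the number fell to 8, 9 and 9 without naïve library 2, 4 or 6. The cause of these shifts was not tested.

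The r of SLC2A1 with FTH1 turned to 0.34 without mimic library 2 and to 0.76 without naïve library 7 as well, and that with GPX1 turned to 0.13 and 0.71. Without naïve library 7 alone they were −0.26 and −0.086. The r of FTH1 with GPX1 stayed between 0.58 and 0.85 over its alternatives. CSPG5 had an r of 0.86 with SLC2A1 without naïve library 7. Under library totals alone the median log2 fold change of all genes was −0.06. The lowest counts behind a level were 179 for SLC2A1 and 558 for GPX1, both in naïve library 7.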
